A study of Homo sapiens with 12 samples.

Results

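Cells carrying hairpins against both SIRT1 and IGF2BP2 (double KD) were compared with cells carrying the IGF2BP2 hairpin without the SIRT1 hairpin (IGF2BP2 KD), gene by gene, to measure what the loss of SIRT1 adds where IGF2BP2 is already low. The comparison rests on 6 of the 12 RNA-seq libraries of the series, 3 double KD and 3 IGF2BP2 KD, taken by their labels and not by any measured value. All were made from MDA-MB-231, a human triple-negative breast cancer line with mesenchymal features. The remaining 6 libraries are 3 of cells with a sham hairpin, which the labels call untreated (control), and 3 of cells with the SIRT1 hairpin (SIRT1 KD). Every group, the control included, received lentivirus packaged in HEK-293T cells with Polybrene and was kept under puromycin, so none is free of virus or drug. No source used here gives the hairpin sequences, the number of hairpins per gene or whether the lines are pools or clones. Each condition was analysed 3 independent times by the design text. Separate infections are not named, and p-values therefore cover only the spread between these libraries, which may be technical.

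SIRT1 is an NAD-dependent deacetylase that removes acetyl groups from histones and from regulators such as p53, FOXO factors and NF-kB, and so ties transcription to the metabolic state of the cell. IGF2BP2 is an RNA-binding protein that reads N6-methyladenosine (m6A) marks and stabilises or aids the translation of bound transcripts, among them growth and oncofetal mRNAs. ATP6V1A is the catalytic A subunit of the vacuolar proton pump (v-ATPase) that acidifies lysosomes; both SIRT1 and IGF2BP2 have been tied to its mRNA in earlier work.

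Double KD replicate 2 stood apart from the other libraries before any gene was considered. It held 15243152 reads in genes against 19522606 to 22509142 in the other 11 libraries. The SD of its log2 values to the mean of its partners was 0.478, against 0.273 to 0.379 elsewhere. Mitochondrially encoded transcripts took 1.18% of its reads against 1.99 to 2.57% in the other libraries, and the 10 most abundant genes 8.53% against 6.06 to 7.32%. Log2 differences between double KD and IGF2BP2 KD are therefore given with all 12 libraries and, after a slash or where so stated, without this one. The part of depth and RNA quality in the results was not tested. The mesenchymal line markers VIM, CD44, ZEB1, MSN and AXL were all present, summing to 5450 to 5880 CPM (reads scaled to library size) in double KD and 4850 to 5040 CPM in IGF2BP2 KD libraries. The 5 immune markers summed to at most 0.311 CPM, and the 5 packaging cell markers to 12.8 to 13.3 CPM in double KD and 10.9 to 13.2 CPM in IGF2BP2 KD libraries. ZIC2 gave nearly all of these packaging cell sums, PAX2 and NEFM were listed at 0 in all 6 libraries, and CDX2 and LIN28B did not exceed 0.0469 CPM. Of the epithelial markers, KRT8 and KRT18 were high in both groups and ESR1 did not exceed 0.311 CPM.

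SIRT1 (chr10:67884669-67918390 in GRCh38), the target of the added hairpin, was lower in double KD cells. The normalised read counts were 396, 380.2 and 436 in the double KD libraries and 763, 691 and 730.4 in the IGF2BP2 KD libraries. The groups did not overlap, and 55.5% of the IGF2BP2 KD mean remained (log2 difference -0.85 ± 0.079 SE, adjusted p = 2.63e-07, limma; -0.81 without double KD replicate 2). In SIRT1 KD against control the difference was -0.66. Only transcripts were measured, not protein.

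IGF2BP2 (chr3:185643739-185825056) was low in both groups, as the shared hairpin implies. Its counts were 992, 715 and 884 in double KD and 709, 841 and 736 in IGF2BP2 KD libraries, against 3076 ± 44.5 (SD, n = 3) in control cells. With all libraries the difference did not pass the test (log2 0.17, 95% interval -0.026 to 0.37, adjusted p = 0.181). Without double KD replicate 2, the lowest of its group, IGF2BP2 was higher in double KD (0.30, adjusted p = 0.000228). Whether IGF2BP2 depletion was equal in both groups therefore depends on that library.

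ATP6V1A (chr3:113747019-113812056) was lower in double KD by a margin that just passed the test. Its counts were 1494, 2513 and 1960.1 in double KD and 2624, 2314 and 2618 in IGF2BP2 KD libraries. Replicate 2 lay among the IGF2BP2 KD values and replicates 1 and 3 lay below all of them. The log2 difference was -0.37 ± 0.14 (SE; adjusted p = 0.0492), -0.55 (adjusted p = 0.00027) when double KD replicate 2 was left out, and -0.18 when replicate 1 of that group was, where the call was lost. Of the fits that left out 1 library, only those without double KD replicate 2 or SIRT1 KD replicate 2 kept the call. With the replicate number as a block the adjusted p was 0.0637. In SIRT1 KD against control the difference was -1.31, and the change in IGF2BP2-depleted cells was the smaller one (interaction 0.94, adjusted p = 0.0183; 0.75 without double KD replicate 2).

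**Figure D1:**
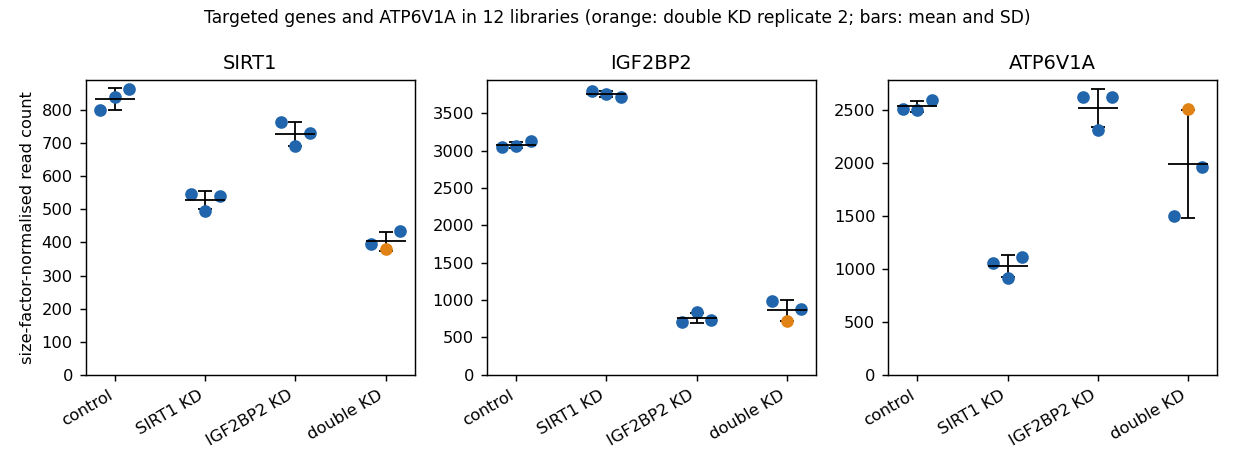
Size-factor-normalised read counts of SIRT1, IGF2BP2 and ATP6V1A in all 12 libraries by group; horizontal marks and bars are the mean and SD of 3 libraries, and double KD replicate 2 is orange. SIRT1 lies at 396, 380.2 and 436 in double KD, below every other group, while the ATP6V1A value of double KD replicate 2 lies among those of IGF2BP2 KD.

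Of 17576 genes tested, 2885 (16.4%) were higher and 2665 (15.2%) were lower in double KD than in IGF2BP2 KD cells at an adjusted p under 0.05. Differences of at least 2-fold were uneven, with 156 genes higher and 409 lower. The median log2 difference of all genes was 0.0063, so the normalisation left no overall shift. In bulk RNA, fewer cells with a transcript and less of it per cell cannot be told apart. Without double KD replicate 2 the numbers rose to 3346 higher (19.0%) and 3133 lower (17.8%), and the median SE of a log2 difference fell from 0.118 to 0.101. Of the genes called with all libraries, 2601 of 2885 higher (90.2%) and 2406 of 2665 lower (90.3%) were called in the same direction without it, 543 were lost, and none changed sign. A further 1472 genes were called only without it. Of the differences of at least 2-fold, 139 of the 156 higher and 370 of the 409 lower genes were called in the same direction without it, at any size. With only the 6 libraries of the comparison in the fit, 1839 genes were higher and 1801 lower.

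**Figure D2:**
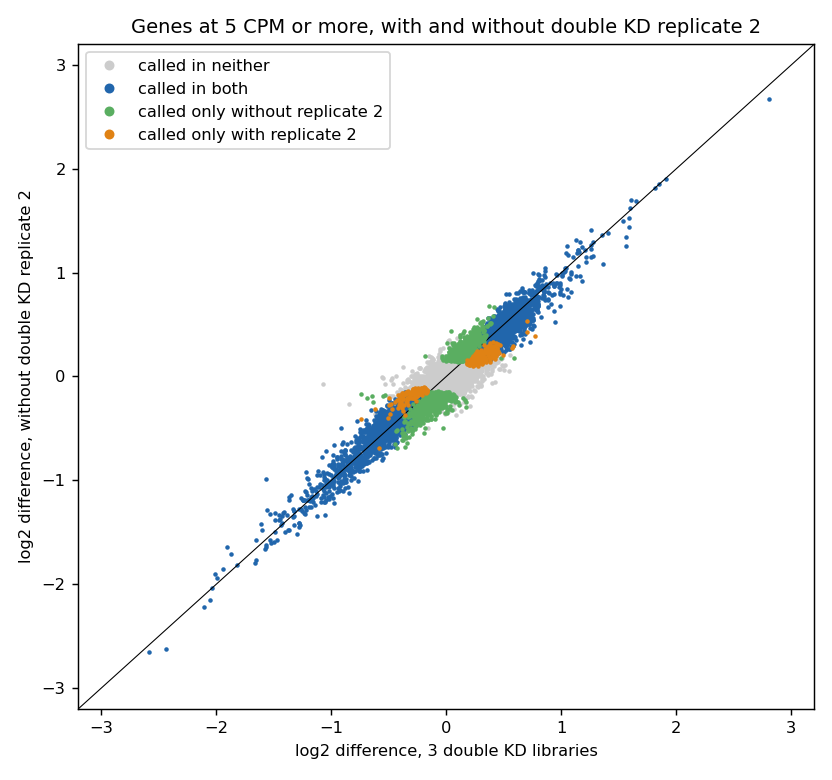
Log2 difference between double KD and IGF2BP2 KD for each gene at a mean of 5 CPM or more, with 3 double KD libraries (x axis) and without double KD replicate 2 (y axis); colours show in which of the fits a gene was called. The genes called in one fit but not in the other lie near 0, and the large differences lie along the diagonal.

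The largest falls included genes of the cell surface and its surroundings. The 12 genes of this set were chosen among genes whose 3 double KD libraries all lay below the 3 IGF2BP2 KD libraries. That held for 3325 of the 17576 genes tested. All 12 were called without double KD replicate 2. LGALS12, a galectin best known from fat cells, had counts of 32.9, 34.3 and 26.8 in double KD and 171, 221 and 186 in IGF2BP2 KD libraries (log2 -2.58 ± 0.16, adjusted p = 3.09e-09; -2.65 without replicate 2). SDC2, a surface syndecan that carries heparan sulfate chains, had 93.5, 133 and 86.6 against 595, 532 and 556 (-2.44 ± 0.16 / -2.63). In both genes the double KD libraries were far below the IGF2BP2 KD libraries, and for SDC2 replicate 2 was the least reduced of the 3. FPR1, a receptor for formylated peptides, stood at 36.5, 48 and 38.1 against 186, 178 and 171 (-2.10 / -2.22). HAS2, a hyaluronan synthase, stood at 58.7, 50.8 and 55.6 against 225, 194 and 250.2 (-1.99 / -1.94). CLDN2, a claudin of tight junctions, stood at 73, 52.2 and 60.8 against 228, 243 and 285 (-2.01 / -1.90). These are low to moderate counts.

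Abundant transcripts were among the largest falls. RPN2 encodes ribophorin II, a subunit of the oligosaccharyltransferase that attaches N-glycans in the endoplasmic reticulum. Its counts were 1837, 1838 and 1827 in the double KD libraries and 7714, 7285 and 7599 in the IGF2BP2 KD libraries. The 3 double KD values were nearly equal, replicate 2 included, at 24.3% of the IGF2BP2 KD mean (log2 -2.04 ± 0.061, adjusted p = 2.84e-13, or -2.04 without replicate 2). TSPAN9, a tetraspanin, had 584, 719 and 588 against 2438, 2708 and 2696 (-2.06 / -2.15). TMEM123, the surface mucin also called porimin, had 2925, 2114 and 2926 against 10254, 8366 and 10307 (-1.87 / -1.71). These were high counts with a gap of several-fold between the groups. PBXIP1 had 478, 619 and 446 against 1445, 1750.0 and 1656 (-1.66 / -1.80). PDE7B, a cyclic AMP phosphodiesterase, had 361, 346 and 344 against 1241, 1216 and 1274 (-1.82 / -1.81). SORBS2, an adaptor of the actin cytoskeleton, had 89, 52.2 and 91.7 against 286, 307 and 263 (-1.91), and its fall was -1.65 without replicate 2, the lowest library.

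The largest rises included signalling genes. GOLGA7B, which belongs to a family of palmitoyltransferase partners, rose the most, with counts of 279, 384 and 297 in double KD and 41.9, 60.3 and 34.5 in IGF2BP2 KD libraries (log2 2.81 ± 0.17, adjusted p = 2.22e-09; 2.67 without double KD replicate 2). IL6R, the interleukin-6 receptor, had 213, 229 and 234 against 59.8, 55.3 and 62.3 (1.91 ± 0.16 / 1.90). DISP2, a dispatched family member, had 466, 505 and 543 against 128, 153 and 138 (1.85 / 1.85). In each the lowest double KD library was at least 3 times the highest IGF2BP2 KD library. MARCHF4, a membrane E3 ubiquitin ligase, had 708, 763 and 817 against 249.8, 234 and 173 (1.81 / 1.81). PPARGC1B, a coactivator of mitochondrial and lipid genes, had 307, 306 and 361 against 96.3, 104 and 107 (1.65 / 1.69). AOX1, an aldehyde oxidase, had 1339.6, 1157 and 1509 against 475, 382 and 460.1 (1.60 / 1.70). Groups without overlap were a condition for the rises as well, met in this direction by 3425 of the 17576 genes tested. NR6A1, an orphan nuclear receptor, rose (1.59 / 1.62), as did LRATD2 (1.53 / 1.49) and AEN, a nuclease induced by p53 (1.41 / 1.38).

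The remaining 3 of the 12 rises were smaller without double KD replicate 2, their highest library. The rises of GOLGA7B, IL6R, LRATD2 and AEN, given above, were also smaller without that library. DUSP8, a phosphatase of MAP kinases, had 318, 479 and 386 against 128, 124 and 136, a log2 difference of 1.58 that was 1.44 without replicate 2. MAPK11, the beta isoform of p38, had 305, 472 and 293 against 131, 117 and 106 (1.56 / 1.34). COL1A1, the alpha 1 chain of type I collagen, had 536, 994 and 571 against 252, 276 and 256 (1.36 / 1.08). All 3 genes were called without that library.

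**Figure D3:**
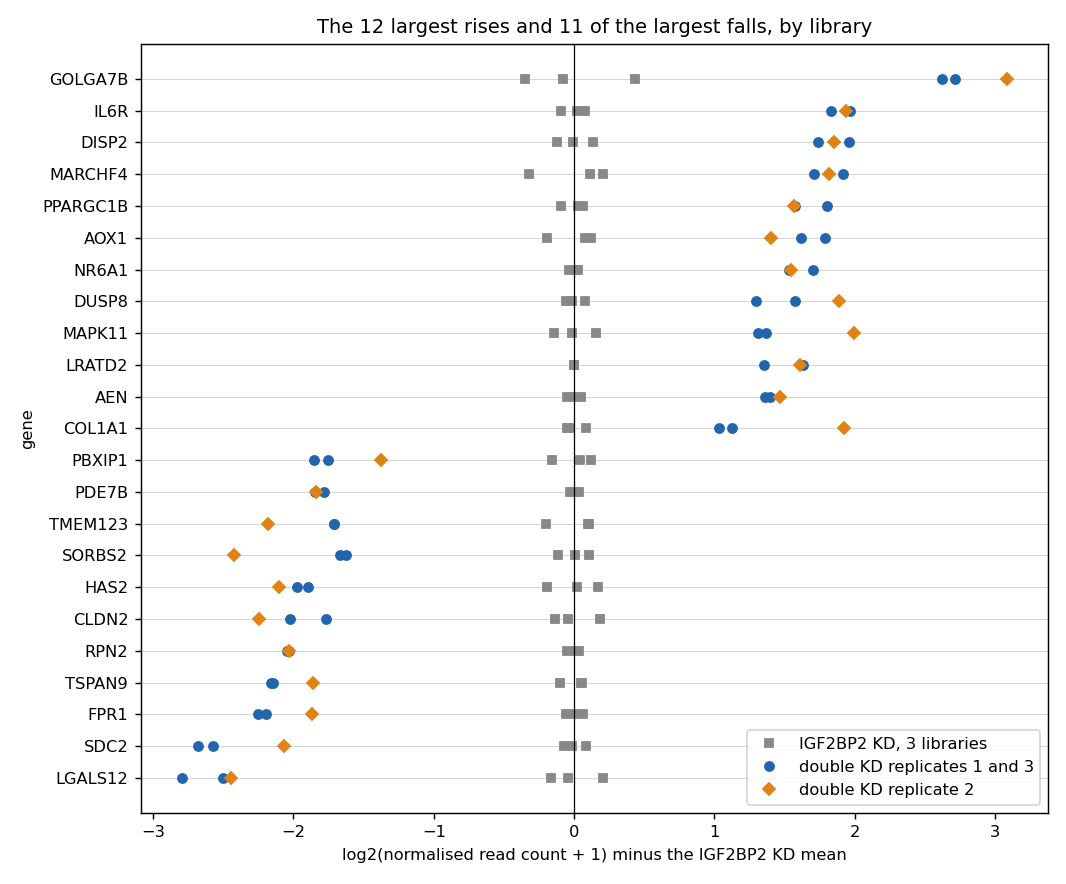
Log2(normalised read count + 1) of each library minus the IGF2BP2 KD mean, for the 12 largest rises (top) and 11 of the 12 largest falls (bottom) among protein-coding genes; squares are IGF2BP2 KD libraries, circles double KD replicates 1 and 3, and diamonds double KD replicate 2. The 23 genes were chosen to have no overlap between the groups, so the absence of overlap is not a result. Replicate 2 lies outside its partners most visibly for COL1A1, MAPK11 and SORBS2.

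Most of the largest falls carried at least 1 of 2 overlapping 7-mers in the 3′ UTR. A search of all 7-mers in SIRT1 KD against control, which shares no library with the present comparison, ranked CTCAGAT and TCAGATA as the 2 with the lowest log2 difference relative to genes without them (-0.21 and -0.20) among 12538 7-mers. Earlier results of these libraries had already named both. They overlap by all but 1 base and spell CTCAGATA when joined. The search used the transcript strand of the annotated 3′ UTRs (GENCODE 29, GRCh38) of 13115 tested genes. Of the 12 largest falls 9 hold at least 1 of the 7-mers, all but LGALS12, FPR1 and CLDN2, and of the 12 largest rises GOLGA7B and PPARGC1B do. Among all genes searched 2355 of 13115 hold at least 1. The stretches below show the match in SIRT1 itself, which lies in exon 8 of 9 and upstream of its 3′ UTR, and in the 3′ UTRs of the falls with a printed sequence and of ATP6V1A. Capitals mark the match.
SIRT1, chr10:67912482-67912511, plus strand: ccccatgaagtgcCTCAGATAttaattaat
RPN2, chr20:37241484-37241513, plus strand: gatacctggtgagCTCAGATAgtctctttc
TSPAN9, chr12:3283652-3283681, plus strand: aggaatattatctCTCAGATAagtttaggg
PBXIP1, chr1:154944907-154944936, minus strand: cttgtttggtgtcCTCAGATAtctttcaca
ATP6V1A, chr3:113811683-113811712, plus strand: tagcgaacctatgCTCAGATAttcatcgta
TMEM123, chr11:102397725-102397754, minus strand: actgtcgatattaCTCAGATttggggaaat
PDE7B, chr6:136193001-136193030, plus strand: caagcatcgtttcCTCAGATtaatgagacc
SORBS2, chr4:185585942-185585971, minus strand: tagtgtgattctgTCAGATAgcatttatgc

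Genes with these letters were lower in double KD more often than genes without them. Of 327 genes with the joined 8-mer in the 3′ UTR, 48.0% were called lower and 8.56% higher, with a median log2 difference of -0.25. Of 2028 genes with a 7-mer but not the 8-mer, 33.7% were lower and 13.6% higher (median -0.12). Of 10760 genes with neither, 13.9% were lower and 22.4% higher (median 0.053). The shares called lower were 49.5%, 35.0% and 17.9% without double KD replicate 2. The order of the 3 classes was the same in both fits. 3′ UTRs with either 7-mer were longer, with a median of 2911 bases against 852 in genes with neither. Within the 4 quartiles of 3′ UTR length the share called lower was 34.2 to 37.1% with either 7-mer and 10.6 to 16.4% with neither. Of 2370 human mature miRNAs in RefSeq, 1 has a seed (bases 2 to 8) that pairs with CTCAGAT; the seed is in capitals.
hsa-miR-3200-5p: aAUCUGAGaaggcgcacaaggu
These counts describe letters in a window. The level of this miRNA was not measured, no source used here gives the sequence of the SIRT1 hairpin, and their part in the result was not tested.

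Genes of protein folding in the endoplasmic reticulum were mostly lower, by modest amounts. Of 31 tested members of the list for the integrated stress and unfolded protein responses 16 (51.6%) were lower and 1 higher, with a median log2 difference of -0.33, and without double KD replicate 2 the numbers were 22 and 1. SEL1L, the adaptor of the ubiquitin ligase that clears misfolded proteins, had counts of 1905, 1606 and 2042 in double KD and 4410.0, 4032 and 4414 in IGF2BP2 KD libraries (-1.22 ± 0.081, adjusted p = 5.69e-09, or -1.12 without replicate 2). HSPA5, the main chaperone of this compartment, had 23039, 28617 and 27496 against 40854, 42057 and 41163 (-0.65 / -0.72). HSP90B1, its HSP90 member, had 10544, 10281 and 10802 against 16993, 16571 and 17068 (-0.68 / -0.66). The groups were well separated for all 3 genes. DNAJC3, a co-chaperone and inhibitor of the kinase PERK (-0.88 / -0.89), and the disulfide isomerase PDIA4 (-0.98 / -1.08) also fell. SESN2, a stress-induced sestrin, was the 1 member that rose (0.38 / 0.29). Of the 16 that fell, 6 hold a 7-mer, against 8 of all 31 members.

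The next stations of the secretory route also held more falls than rises. Among 33 COPII and Golgi traffic genes 17 (51.5%) were lower and 1, GORASP1, was higher (0.24 / 0.27), with a median of -0.19; the numbers were 20 and 2 without double KD replicate 2. Members called higher numbered 2 without double KD replicate 1 and 0 without IGF2BP2 KD replicate 1 or 3. CNIH1, a cargo receptor of COPII vesicles, had 782, 620.4 and 769.8 against 2145, 1823 and 2134 (-1.49 ± 0.09 / -1.39). TMED7, a p24 cargo receptor, had 1438, 1038 and 1500.4 against 3094, 2487 and 2995 (-1.12 / -0.95). These stood at 35.6% and 46.4% of the IGF2BP2 KD mean, while the falls of the coat subunit SEC24D (-0.49 / -0.34) and the cargo receptor TMED10 (-0.37 / -0.40) were smaller. Fewer of these genes were called with only the 6 libraries (10 lower) or from the authors' deposited ratios (9 lower). Of 35 N-glycosylation and translocon genes 10 (28.6%) were lower and 5 higher (12 and 5 without replicate 2). Besides RPN2, they included UGGT1, the glucosyltransferase that senses misfolded glycoproteins (-0.56 / -0.56), and MAGT1, a subunit of the oligosaccharyltransferase (-0.63 / -0.71). SSR3, a translocon-associated subunit, rose (0.56 / 0.62).

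With all libraries, TGF-beta and BMP pathway genes had the largest share of falls among the 39 lists examined. Of 25 tested members 18 (72.0%) were lower and 2 higher, with a median of -0.51, and the counts were the same without double KD replicate 2 (median -0.53). Among ligands, BMP4 had counts of 1409, 1687 and 1364 in double KD and 3295, 3687 and 3436 in IGF2BP2 KD libraries (-1.23 ± 0.079, adjusted p = 3.66e-09, or -1.32 without replicate 2). TGFB2 had 1084, 845 and 1125 against 1936, 2114 and 2010.1 (-0.998 / -0.87). Both ligands were clearly lower in every double KD library. Of the signal transducers, SMAD5, which acts below BMP receptors, had 1408, 1245 and 1451 against 2776, 2309 and 2630.3 (-0.91 / -0.84). ATOH8, a helix-loop-helix factor that responds to BMP, had 145, 156 and 114 against 414, 409 and 410.3 (-1.57 / -1.67). In cells without the IGF2BP2 hairpin, ATOH8 was far lower, at 87.8 ± 7.59 in control and 38.8 ± 9.93 in SIRT1 KD libraries. The receptors TGFBR2 (0.23 / 0.26) and ACVR1 (0.38 / 0.37) were the 2 members that rose. Of the 18 that fell 8 hold a 7-mer, against 9 of all 25 members.

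Matrix, protease and integrin genes followed in the same direction. Of 29 mesenchymal and matrix genes 12 (41.4%) were lower and 2, ZEB2 (0.36 / 0.501) and LAMC1 (0.36 / 0.36), were higher, with 14 and 3 without double KD replicate 2. The higher members numbered 4 without double KD replicate 1 and 1 without IGF2BP2 KD replicate 1 or 2. THBS1, the matricellular thrombospondin 1, had 12919, 13158 and 12705 against 37100.0, 35168 and 36436 (-1.49 ± 0.06, adjusted p = 1.92e-11, or -1.4995 without replicate 2). LOX, the collagen cross-linking lysyl oxidase, had 514, 545 and 610.1 against 1261, 1271 and 1315 (-1.21 / -1.19). TGFBI, a TGF-beta-induced matrix protein, had 984, 985 and 985 against 2126, 2354 and 2269.9 (-1.19 / -1.19). In these genes replicate 2 lay with its partners. COL6A3, a chain of collagen VI, also fell (-1.17 / -1.16). Type I collagen was split: COL1A1 rose, as above, while COL1A2, at no more than 2.15 CPM, fell (13.4, 11 and 13.4 against 38.4, 42.2 and 38.3, -1.59 / -1.498). Both are also among the 5 fibroblast markers, which summed to 29.5 to 48.6 CPM in double KD and 15.5 to 17.3 CPM in IGF2BP2 KD libraries, most of it COL1A1. DCN was listed at 0 in all 6 libraries, PDGFRA did not exceed 0.0512 CPM and LUM did not exceed 1.51 CPM; the part of such cells in these results was not tested.

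Of 15 secreted protease and inhibitor genes 8 (53.3%) were lower and 1, the urokinase receptor PLAUR (0.4999 / 0.39), was higher, with 11 and 1 without double KD replicate 2 and 5 lower with only the 6 libraries. The plasminogen activators PLAT (-0.85 / -0.85) and PLAU (-0.42 / -0.49) and the metalloproteinase inhibitor TIMP2 (-0.57 / -0.61) fell. PLAT counts were 2092, 2196 and 2303 against 3661, 4156 and 4057. Of the 8 that fell 5 hold a 7-mer, as do 5 of all 15. Of 16 integrin genes 6 (37.5%) were lower and 2 higher, with 8 and 2 without replicate 2. The collagen-binding subunits ITGA2 (2432, 2199 and 2455 against 3747, 3469.9 and 3680.0, -0.62 / -0.57) and ITGA1 (-0.68 / -0.55) fell, as did ITGB8 (-0.94 / -0.88) and ITGB5 (-0.58 / -0.74). ITGB2 (0.70 / 0.60) and ITGA6 (0.18 / 0.22) rose, and 1 member was called higher without double KD replicate 3, IGF2BP2 KD replicate 2 or IGF2BP2 KD replicate 3.

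Hypoxia-responsive and glycolytic genes were lower by small to moderate amounts. Of 34 members 18 (52.9%) were lower and 2, the hexokinases HK1 (0.38 / 0.32) and HK2 (0.43 / 0.37), were higher, with a median of -0.28; without double KD replicate 2 the numbers were 23 and 2. CA12, a carbonic anhydrase of the cell surface, had 413, 388 and 469 against 1004, 1092 and 1100.4 (-1.33 ± 0.12, adjusted p = 1.92e-07, or -1.27 without replicate 2). ALDOC, an aldolase, had 148, 165 and 168 against 316, 367 and 376 (-1.13 / -1.15). BNIP3, a mitophagy receptor induced by low oxygen, had 2463, 2699.6 and 2612 against 4089, 3963 and 3894 (-0.62 / -0.65). P4HA1, a collagen prolyl hydroxylase, also fell (-0.64 / -0.63). Of the 18 that fell 2 hold a 7-mer.

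Lipid synthesis genes showed a comparable count. Of 30 cholesterol and fatty acid synthesis genes 15 (50%) were lower and 2, INSIG1 (0.35 / 0.32) and PMVK (0.55 / 0.26), were higher, with 18 and 2 without double KD replicate 2 and 8 lower with only the 6 libraries. Without IGF2BP2 KD replicate 1 or 2 the higher members numbered 1. IDI1, an isomerase of the mevalonate pathway, had 984, 1019.7 and 1037 against 2557, 2172 and 2619.8 (-1.27 ± 0.074, adjusted p = 1.74e-09, or -1.27 without replicate 2). SCD, the stearoyl-CoA desaturase, had 21026, 18575 and 22417 against 37794, 39529 and 40677 (-0.93 / -0.86). SREBF1, the transcription factor of lipid synthesis, also fell (-0.72 / -0.84). The fall of SCD was larger than that in SIRT1 KD against control (-0.38), with an interaction adjusted p of 0.0074.

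Interferon-stimulated genes were mostly lower. Of 31 members 16 (51.6%) were lower and 2 higher, with a median of -0.24, and without double KD replicate 2 the numbers were 18 and 1. IFIT3 and IFIT1, RNA sensors of the antiviral state, had 1597, 1463 and 1736 against 2303, 2367 and 2394 (-0.56 / -0.499) and 991, 876 and 998 against 1388, 1344 and 1430.2 (-0.54 / -0.48). OAS2 (-0.75 / -0.76) and OASL (-0.72 / -0.80), of the oligoadenylate synthetase family, fell. OAS3 (0.27 / 0.24) and RSAD2 (0.73 / 0.62) were higher, and the call for RSAD2 was lost without replicate 2 (adjusted p = 0.061). Neither call was made without double KD replicate 3 or IGF2BP2 KD replicate 1, and 1 member was called higher without IGF2BP2 KD replicate 2. Of 15 MHC class I presentation genes 2 (13.3%) were lower and 2 (13.3%) higher (5 and 2 without replicate 2). The shares of all genes tested were 15.2% lower and 16.4% higher. The peptide transporters TAP1 (0.36 / 0.25) and TAP2 (0.60 / 0.74) rose, and the trimming peptidases ERAP1 (-0.25 / -0.24) and ERAP2 (-0.495 / -0.31) fell.

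NF-kB targets changed in both directions. Of 19 tested members of the NF-kB and inflammatory secretome list 8 (42.1%) were lower and 7 (36.8%) higher, with 7 and 6 without double KD replicate 2 and 5 lower without IGF2BP2 KD replicate 2. The secreted cytokines IL6 (223, 202 and 246 against 408, 455 and 406, -0.92 ± 0.09 / -0.85), IL24 (92.6, 108 and 90.7 against 163, 178 and 176, -0.82 / -0.90) and IL11 (126, 170.2 and 113 against 248, 257 and 266, -0.93 / -1.10) fell in every double KD library. BIRC3, an inhibitor of apoptosis, rose instead, at 2352, 1854 and 2402 against 1199.7, 1283 and 1294 (0.80 / 0.92). The chemokine CXCL8 (-0.48 / -0.45) and the adhesion molecule ICAM1 (-0.62 / -0.64) fell, while the cytokines IL1A (0.67 / 0.89) and LIF (0.35 / 0.31) and the subunit gene NFKB1 (0.45 / 0.40) rose. Among 12 EGF receptor ligand and receptor genes 4 (33.3%) were lower and 3 (25%) higher (5 and 3). The sheddases ADAM17 (-0.70 / -0.72) and ADAM10 (-0.67 / -0.56) and the ligand AREG (-0.61 / -0.65) fell, and the ligand HBEGF rose (1158, 1565 and 1349 against 815, 787 and 838, 0.73 / 0.62).

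Most of the called neuronal genes rose. Of 35 presynaptic and neuronal genes only 19 passed the filter on low counts, and of these 10 (52.6%) were higher and 2 lower, with the same counts without double KD replicate 2. A gene of this kind can pass the filter because it is high in one group, so the share is read against no background. SYT1, the calcium sensor of synaptic vesicles, had 155, 141 and 181 against 33, 23.1 and 37.4 (2.34 ± 0.16, adjusted p = 1.03e-08, or 2.42 without replicate 2). SYP, a synaptic vesicle membrane protein, had 71.2, 82.3 and 76.3 against 25.9, 24.1 and 24 (1.60 / 1.54). BSN, a scaffold of the active zone, had 87.2, 106 and 88.6 against 25, 37.2 and 17.3 (1.85 / 1.76). These 3 genes were low in IGF2BP2 KD cells, at most 37.4 counts in a library. STMN3, a stathmin, rose from a higher level (2119, 2894 and 2261 against 1174, 1308 and 1348, 0.91 / 0.78). The 2 that fell were REST, the repressor of neuronal genes (1611, 1256 and 1675 against 2415, 2195 and 2265, -0.61 / -0.48), and its corepressor RCOR1 (-0.495 / -0.41). Both hold a 7-mer.

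Oncofetal genes known as let-7 targets were higher in 6 cases. Of 17 listed genes 10 were tested and 6 of them were higher, and the count was the same without double KD replicate 2. Here too a gene can pass the filter because it is high in one group, so the count is read against no background. HMGA2, a chromatin protein of embryonic cells, had 3835, 2652 and 4093 against 1600.2, 1581 and 1591 (1.12 ± 0.11 / 1.32). HMGA1 had 32603, 37110.0 and 38158 against 24479, 26118 and 25170.0 (0.51 / 0.48), and IGF2BP3, a paralog of IGF2BP2, had 1214, 977 and 1204 against 859.9, 915 and 904 (0.33 / 0.44). Replicate 2 was the lowest double KD library for HMGA2 and IGF2BP3. Of 23 microRNA processing and silencing genes 8 (34.8%) were higher and 2 lower (10 and 2 without replicate 2). The decapping enzyme DCP2 had 4992, 5575 and 5465 against 2940.0, 2373 and 2689 (1.01 / 0.97), the miRNA exporter XPO5 rose (0.53 / 0.54), and so did the Argonautes AGO3 (0.47 / 0.51) and AGO4 (0.47 / 0.51) and DICER1 (0.32 / 0.38).

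Immediate-early genes were raised more often than lowered. Of 23 immediate-early and heat-shock genes 11 (47.8%) were higher and 4 lower, and 11 and 6 without double KD replicate 2. DUSP1, a MAP kinase phosphatase, had 854, 1242 and 1048 against 486, 492 and 499 (1.07 ± 0.10 / 0.94). EGR1, a zinc-finger factor, had 283, 287 and 361 against 124, 176 and 135 (1.10 / 1.15). The AP-1 members FOSL1 (0.68 / 0.71) and JUN (0.61 / 0.52) rose. The double KD libraries exceeded the IGF2BP2 KD libraries throughout for these 4 genes. Of the 4 that fell, the nuclear receptor NR4A2 had the largest fall (-0.75 / -0.69).

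Targets of 2 classic SIRT1 substrates moved both ways. Of 26 p53 targets 10 (38.5%) were higher and 5 (19.2%) lower, with 9 and 8 without double KD replicate 2. AEN had 782, 844 and 802 against 304, 315 and 294 (1.41 / 1.38), and ZMAT3, an RNA-binding p53 target, had 909.7, 861 and 972 against 562, 484 and 561 (0.77 / 0.81). MDM2, the ubiquitin ligase of p53, fell instead, with 1532, 1437 and 1597 against 2250.5, 1980.1 and 2243 (-0.502 / -0.46). PLK2 rose (0.45 / 0.49). Of 19 FOXO targets 6 (31.6%) were higher and 6 lower in both fits. CCNG2, an atypical cyclin, fell (761, 821 and 779 against 1838, 1777 and 1908, -1.23 / -1.26), with TXNIP (-0.68 / -0.68) and CITED2 (-0.51 / -0.52) also lower and KLF6 higher (10410.0, 11799 and 11983 against 7127, 6799 and 7008, 0.71 / 0.68). MDA-MB-231 is known to carry a mutant p53.

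Cell cycle genes showed no single direction. Of 43 members 9 (20.9%) were higher and 9 lower, with 9 and 13 without double KD replicate 2, 5 lower without IGF2BP2 KD replicate 1 and a median of -0.013. Among those that rose were CCND1, cyclin D1 (21220.0, 24360.0 and 22726 against 16070.0, 14900.0 and 15338, 0.56 / 0.51), the phosphatase CDC25A (985, 1182 and 1039.8 against 645, 586 and 545, 0.85 / 0.78) and the helicase subunit MCM6 (0.55 / 0.48). FOXM1, the transcription factor of late cell cycle genes, had 1054, 954 and 1173 against 2057, 1973 and 1934 (-0.91 / -0.84). The replication factors PCNA (0.13 / 0.012) and MCM2 (0.27 / 0.085) did not pass the test, and TYMS, thymidylate synthase, fell (-0.24 / -0.28). In SIRT1 KD against control the median of this list was -0.24. Of its 43 members 10 had a called interaction, against 503 (2.86%) of all 17576 genes tested. The count over all genes ran from 113 to 1771 when single libraries were left out, and the 10 members were not followed in those fits. Replication-dependent histone genes depended on the libraries: of 18 tested 8 (44.4%) were lower, against 17 without double KD replicate 2 and 5 without IGF2BP2 KD replicate 1. H1-2 had 8870.1, 11942 and 9978 against 14570.0, 13702 and 13966 (-0.47 / -0.58) and H2AC20 had 1310.3, 1439.7 and 1559 against 1932, 1810.3 and 1996 (-0.42 / -0.42). Histone genes are close copies of one another, so their separate counts are uncertain.

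Lysosomal genes showed no single direction. Of 21 v-ATPase subunits 6 (28.6%) were higher and 4 (19.0%) lower (5 and 4 without double KD replicate 2). The higher count was 3 without IGF2BP2 KD replicate 2, and the lower count was 2 without double KD replicate 1, IGF2BP2 KD replicate 1 or IGF2BP2 KD replicate 3. ATP6V0A1, a subunit of the membrane sector, had 1748, 1676 and 1902 against 1036, 1055 and 1063 (0.75 ± 0.066 / 0.79). ATP6V1B2, which with ATP6V1A forms the catalytic ring, rose (0.32 / 0.30), as did ATP6V1E2 (0.60 / 0.501), and ATP6V1E1 fell (-0.27 / -0.27). The A subunit was called lower, by the unstable margin given above, while its B partner was called higher. Of 25 lysosomal membrane genes 4 (16%) were higher and 5 (20%) lower (4 and 4), against 16.4% and 15.2% of all genes tested. LAMP1, the main membrane glycoprotein, had 2128, 2197 and 2128 against 4757, 4881 and 4773 (-1.16 ± 0.064, adjusted p = 1.1e-09, or -1.17 without replicate 2), with 3 nearly equal double KD values. LAMP2 had 3388, 2503 and 3606 against 5025, 4446 and 5194 (-0.64 / -0.48), the channel TPCN1 fell (-0.49 / -0.49) while SLC17A5, which exports sialic acid, rose (0.67 / 0.63). The 3′ UTR of LAMP1 holds one of the 7-mers and that of LAMP2 does not.

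Of 44 lysosomal hydrolases and activators 11 (25%) were lower and 5 higher, and 16 and 2 without double KD replicate 2. The lower count was 7 without double KD replicate 1 and 6 without IGF2BP2 KD replicate 2, and the higher count was 2 without IGF2BP2 KD replicate 1 or 3. GALC, a galactocerebrosidase, had 287, 276 and 318 against 449.6, 467 and 461 (-0.65 / -0.60), the cathepsins CTSZ (-0.39 / -0.49) and CTSO (-0.63 / -0.54) fell, and CTSC rose (0.30 / 0.31). The calls for higher PSAP, GAA and ARSA were lost without replicate 2. Of 37 autophagy and MiT/TFE genes 9 (24.3%) were higher and 1, LAMTOR1, a scaffold of mTORC1 on the lysosome, was lower (898, 1053 and 888 against 1556, 1648 and 1697, -0.79 / -0.87). Without double KD replicate 2 the numbers were 9 and 4. The higher count was 5 without IGF2BP2 KD replicate 1, 5 without a filter on low counts and 3 with only the 6 libraries. The lower count was 2 without double KD replicate 1 or IGF2BP2 KD replicate 2 and 4 without double KD replicate 3. FNIP2 and RRAGD, of the amino acid sensing branch, had 866, 832 and 920.3 against 535, 474 and 482 (0.81 / 0.85) and 993, 984 and 1123 against 651, 614 and 659 (0.69 / 0.72). The kinase gene ULK2 rose (0.502 / 0.58). Of 41 ESCRT and vesicle release genes 10 (24.4%) were higher and 5 lower (13 and 7). SDC2 fell, as above, while its partner syntenin, SDCBP, rose (3526, 4006 and 4144 against 2783, 2452 and 2689.8, 0.56 / 0.53) together with the ESCRT-II subunits VPS36 (0.64 / 0.65) and VPS25 (0.45 / 0.46).

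Among mitochondrial genes the counts moved with single libraries. Of 35 nuclear oxidative phosphorylation genes 8 (22.9%) were higher and 2 lower in both fits, but 18 were higher without double KD replicate 1, 5, 4 and 5 without IGF2BP2 KD replicates 1, 2 and 3, and 3 with only the 6 libraries. The lower count was 4 when double KD replicate 3 was left out and 1 without double KD replicate 1, IGF2BP2 KD replicate 1 or IGF2BP2 KD replicate 3. NDUFS1, a core subunit of complex I, fell against the majority (1703, 1698 and 1839.5 against 2825, 2569.8 and 2745, -0.64 / -0.62) and its 3′ UTR holds CTCAGATA. CYCS (0.42 / 0.35), UQCRFS1 (0.40 / 0.29) and ATP5MC1 (0.40 / 0.26) rose, and the call for ATP5MC1 was lost without IGF2BP2 KD replicate 2 (adjusted p = 0.0565). The 13 mitochondrially encoded genes had a median of -0.47 with all libraries and -0.070 without double KD replicate 2, the library with the low mitochondrial share. MT-ND3 was the 1 called lower (4598, 4651 and 5804 against 7036, 6334 and 6159.8, -0.38 / -0.33), against 5, 2 and 3 called without double KD replicates 2, 1 and 3 and 2 with the replicate number as a block. Of 68 cytosolic ribosomal protein genes 2 (2.94%) were higher and 4 (5.88%) lower, against 2 and 14 without double KD replicate 2. Without double KD replicate 1 the higher count was 11, and without its replicate 3 the counts were 1 and 13. The higher count was also 1 when any of 7 other libraries was left out, all but IGF2BP2 KD replicate 1 and SIRT1 KD replicate 2. The block gave 9 lower and the fit without a filter 8. RPS4X had 7006, 7558 and 7791 against 12146, 12001 and 12167 (-0.70 ± 0.064, adjusted p = 2.19e-07, or -0.71 without replicate 2) and did not pass the test in SIRT1 KD against control (0.0028), with an interaction adjusted p of 0.000632. RPL11 (-0.46 / -0.40) fell, and RPL17 rose (0.49 / 0.37). Ribosomal protein genes have many processed copies, so reads could be shared with them.

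Members of the sirtuin, m6A and NAD lists changed in both directions. Of the 7 sirtuins SIRT1 was lower, and SIRT2 (1046, 1079 and 1121 against 838, 919 and 862, 0.31 / 0.31) and SIRT5 (0.26 / 0.30) were higher, in both fits. The call for SIRT5 was lost without double KD replicate 3 (adjusted p = 0.0559) or IGF2BP2 KD replicate 1 (adjusted p = 0.0635), and 4 sirtuins were higher without double KD replicate 1. Of 19 IGF2BP and m6A genes 3 (15.8%) were higher and 4 (21.1%) lower (5 and 4 without double KD replicate 2). The shares of all genes tested were 16.4% and 15.2%. METTL14, a subunit of the m6A methyltransferase, had 547, 388 and 524 against 873, 706 and 814 (-0.72 / -0.57) and its 3′ UTR holds CTCAGATA. The demethylase ALKBH5 (-0.27 / -0.31) and the reader YTHDC2 (-0.28 / -0.30) also fell. Of 17 genes of NAD synthesis and use 3 (17.65%) were higher and 3 (17.65%) lower (4 and 4), and 5 were lower without double KD replicate 1. NNMT, which consumes nicotinamide by methylation, had 1088, 1591 and 1190.3 against 2394, 2704 and 2638 (-1.02 / -1.18). The phosphorylase PNP (0.72 / 0.66), the kinase NADK2 (0.39 / 0.39) and NAPRT (0.65 / 0.42), an enzyme of the nicotinic acid route, rose.

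Smaller lists closed the survey. Of 19 Hippo pathway genes 5 (26.3%) were higher and 5 (26.3%) lower (6 and 6 without double KD replicate 2). Without IGF2BP2 KD replicate 3 the lower members numbered 3. MOB1A, an activator of the LATS kinases, had 2708, 2155 and 2824 against 5682, 4803 and 5507 (-1.06 / -0.94), the YAP target CCN2 had 1907, 2370.2 and 1955 against 3413, 3402 and 3329 (-0.71 / -0.81), and TEAD4 (0.68 / 0.69) and NF2 (0.53 / 0.47) rose. Of 23 intraflagellar transport genes 6 (26.1%) were lower and 1 (4.35%) higher (7 and 1). IFT52, a core subunit of complex B, had 299, 359.6 and 320.5 against 1028, 918 and 961 (-1.57 ± 0.092 / -1.64) and was set apart in size from CLUAP1 (-0.45 / -0.38) and IFT81 (-0.30 / -0.23); its 3′ UTR holds CTCAGATA. WDR35 rose (0.27 / 0.31). Of the epithelial markers EPCAM (134, 199 and 192 against 216, 223 and 243, -0.39 / -0.496) and the nearly silent CDH1 (0.89, 13.7 and 2.06 against 12.5, 24.1 and 15.3, -2.01 / -2.88) fell, with replicate 2 within the IGF2BP2 KD range for CDH1. Neither was called without double KD replicate 1, where EPCAM was at -0.215 (adjusted p = 0.146) and CDH1 at -1.398 (adjusted p = 0.0679), or without IGF2BP2 KD replicate 2 (adjusted p = 0.0599 and 0.076). The call for EPCAM was also lost without IGF2BP2 KD replicate 3 (adjusted p = 0.11) and that for CDH1 without double KD replicate 3 (adjusted p = 0.0617). Of the mesenchymal line markers MSN (0.34 / 0.31) and AXL (0.24 / 0.17) rose.

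**Figure D4:**
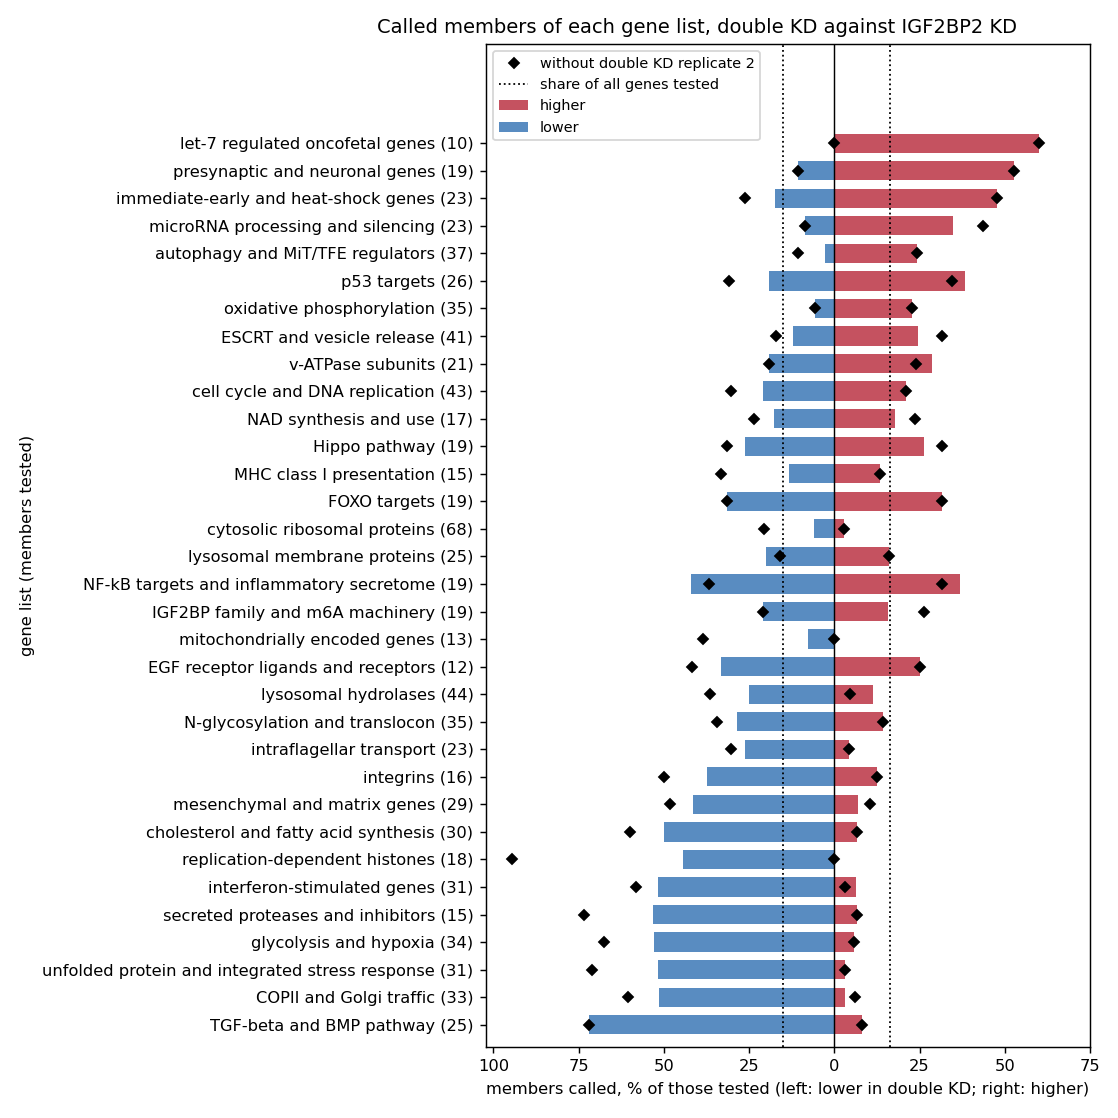
Share of the tested members of each list called lower (left, blue) or higher (right, red) in double KD than in IGF2BP2 KD, for lists with at least 10 tested members; diamonds give the share without double KD replicate 2 and dotted lines the shares of all genes tested, 15.2% lower and 16.4% higher. TGF-beta and BMP genes have the largest share lower (72.0%), and the diamonds move furthest from the bars for the histone genes. Many members of the neuronal list (19 of 35 tested) and the let-7 list (10 of 17 tested) failed the filter on low counts. The bars of these lists are not to be read against the dotted lines.

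Some calls rested on double KD replicate 2. ENDOG, a mitochondrial nuclease, had 210.1, 379 and 207 against 149, 187 and 176, and its log2 difference of 0.58 (adjusted p = 0.0282) was 0.29 without that library (adjusted p = 0.0516). CCNO (0.57 / 0.27), TLCD1 (0.46 / 0.31) and MREG (0.46 / 0.22) were higher with it and not called without it. H4C12 (-0.62 / -0.32), SMARCE1 (-0.498 / -0.21), PPARGC1A (-0.49 / -0.36) and GABRE (-0.48 / -0.27) were lower with it and not called without it. In CCNO and MREG replicate 2 alone was far from the IGF2BP2 KD values, at 135, 257 and 136 against 112, 117 and 109 and at 247, 438 and 291 against 219, 221 and 251. Other genes were called only when it was left out. STK26, a kinase, had 232, 132 and 266 against 162, 127 and 181, and its difference of 0.37 was 0.68 without that library; ZC3H8 (0.42 / 0.67), DUS4L (0.41 / 0.58) and ZNF816 (0.37 / 0.56) were likewise called higher only without it. H2AC21 (323, 592 and 374 against 569, 553 and 562, -0.43 / -0.69), DPM3 (-0.36 / -0.68), MYO1F (-0.44 / -0.65) and LMTK3 (-0.35 / -0.65) were called lower only without it. With the replicate number as a block GABRE was not called either (adjusted p = 0.0667).

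The same SIRT1 hairpin label can be followed in a second background, SIRT1 KD against control, which shares no library with the present comparison. Of all 17576 genes tested, 2272 were higher and 2758 lower in SIRT1 KD than in control. Of the 2885 genes higher in double KD 1508 (52.3%) were also higher in SIRT1 KD, which is 66.4% of the 2272 higher there. Of the 2665 lower genes 1674 (62.8%) were also lower, 60.7% of 2758. With all libraries 5550 and 5030 genes were called in the 2 comparisons, and 43 were called in opposite directions. Without double KD replicate 2 these numbers were 6479, 7001 and 118. Across genes the log2 differences correlated with r = 0.59 over 17576 genes and 0.76 over the 11004 at 5 CPM or more (0.61 and 0.78 without double KD replicate 2); genes are not independent replicates, and both comparisons share the cell line and the hairpin target.

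The change differed between the backgrounds for 503 genes (2.86%) by the interaction test, 299 with a more positive change in IGF2BP2-depleted cells and 204 with a more negative one. This count moved with single libraries. It was 1771 (10.1%) when double KD replicate 2 was left out and 1062 when its replicate 1 was, and of the 503 genes 502 were called with the same sign in the former. It was 256, 113 and 185 without control replicates 1, 2 and 3, 182, 239 and 174 without SIRT1 KD replicates 1, 2 and 3, and 250 and 165 without IGF2BP2 KD replicates 2 and 3. DESeq2 called 926 interactions and the authors' deposited ratios gave 74. MUC5AC, a gel-forming mucin, had the lowest adjusted p. Its counts were 179.8, 200.4 and 164 in double KD and 568, 520.4 and 485 in IGF2BP2 KD libraries, a log2 difference of -1.53 / -1.60, and 489.5, 520.1 and 564 in SIRT1 KD against 204, 205 and 218 in control libraries, a difference of 1.32 (interaction -2.85, adjusted p = 1.2e-09). The direction of the change was thus opposite in the 2 backgrounds in every library. CYP26B1, a retinoic acid hydroxylase, did the reverse, with 179.8, 231 and 177 against 103, 106 and 126 (0.80 / 0.68) and 84.4, 91 and 76.9 against 129, 156 and 129 (-0.71; interaction 1.505, adjusted p = 0.000632).

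For other genes one background held most of the change. SOX4, a transcription factor, had 531, 563 and 561 against 1299.6, 1428 and 1456 (-1.34 / -1.35) and in the other background a difference of -0.27 (interaction adjusted p = 0.000365). CAVIN2, a caveolar coat protein, fell (-0.51 / -0.498) and rose in SIRT1 KD (0.34). Conversely, UAP1, an enzyme of amino sugar synthesis, did not pass the test in double KD (2554, 2712 and 2637 against 2818, 2630.0 and 2782, -0.058 / -0.079) and fell in SIRT1 KD (-0.70), and UNG, the uracil DNA glycosylase, fell less (-0.35 / -0.34 against -1.08). All of these interactions were called without double KD replicate 2, with values of -1.08 for SOX4 and 0.73 for UNG.

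**Figure D5:**
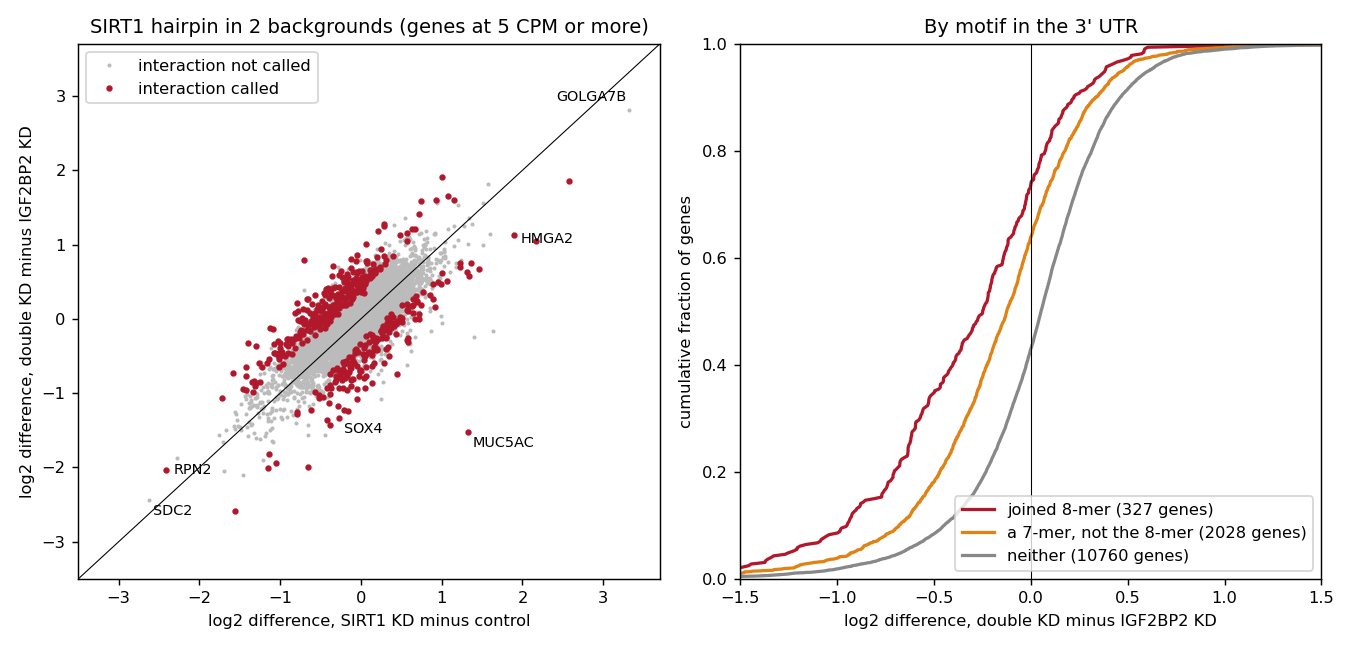
Left: log2 difference of each gene at 5 CPM or more in SIRT1 KD minus control (x axis) and in double KD minus IGF2BP2 KD (y axis), with genes whose interaction was called in red; the line marks equal change, and MUC5AC lies at a rise on one axis and a fall on the other. Right: cumulative fraction of genes by log2 difference between double KD and IGF2BP2 KD, for genes whose 3′ UTR holds the joined 8-mer, a 7-mer but not the 8-mer, or neither; the curve of the 8-mer lies furthest left, with a median of -0.25.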

How the data were processed

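Total RNA of 12 MDA-MB-231 libraries was sequenced. The deposited signal per gene and library is a read count divided by 1 size factor per library by the authors; every value is a whole multiple of 1 step per column (within 0.001 reads), which gave back the reads. CASAVA, STAR, DESeq2 and GRCh38.p13 are named in the submitters' processing notes; no source used here gives the counting program, annotation or strand setting, so antisense reads cannot be told apart. The authors also deposited log2 ratios of protein-coding genes to control, used as an alternative; the short column codes of the count table matched those named ratios in 12 of 12 columns. A table of 12 columns without names was not used. Symbols were found for 60463 of 60649 gene IDs.

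From these values log2(normalised count + 1) was tested with limma 3.58.1 (R 4.3.3; trend and robust), all 12 libraries and 1 mean per group, on the 17576 genes kept by filterByExpr (edgeR 4.0.16, minimum count 10), with Benjamini-Hochberg adjustment and a threshold of 0.05; a difference is on the log2(count + 1) scale and understates changes of low genes. The interaction is the double KD minus IGF2BP2 KD difference less the SIRT1 KD minus control difference. Reads in genes were 15243152 to 22509142 per library. The limma and edgeR fits of double KD against IGF2BP2 KD were run on simulated counts with 1 spread for all genes and libraries. An outlying library and the interaction were not covered. The genes named are the 12 largest rises and falls among protein-coding genes at 5 CPM or more with groups that do not overlap, SIRT1, IGF2BP2, ATP6V1A, up to 4 called members per list by adjusted p, up to 4 per direction whose call is lost or gained without double KD replicate 2, and the 4 lowest adjusted p per direction of the interaction. HSPA5, REST, RCOR1, CXCL8, NFKB1, ICAM1, IL1A, LIF, PCNA, MCM2, TYMS, ITGB2, ITGA6, NR4A2, the genes against a list's direction and the lost calls of a list were named after their values were seen. Some genes that the rule picks are not reported here. The comparison, the 39 gene lists (952 genes, 879 tested) and the 7-mers were chosen with earlier results of these data known. Alternatives were edgeR, DESeq2 1.42.0, TMM, a pseudocount of 5, no filter, only the 6 libraries, the replicate block, the deposited ratios and leaving out each library. Replicate pairs differed by a mean chi-square of at least 2.34 per gene, above sampling noise. Same-numbered double KD and IGF2BP2 KD libraries deviated together (correlations 0.12, 0.35 and 0.23), but double KD replicate 3 correlated more with IGF2BP2 KD replicate 1 (0.39). The main fit was unpaired, and the replicate number entered only as the block among the alternatives.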

Additional observations from a re-analysis of the deposited data

Results flagged for a closer look

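For 38 of the named genes the change with the SIRT1 hairpin differed between IGF2BP2-depleted and control cells by the interaction test (limma, adjusted p from 1.2e-09 to 0.0499). Each value below is the interaction on the log2 scale, followed by the double KD minus IGF2BP2 KD and the SIRT1 KD minus control differences it is made of. Over all genes 503 (2.86%) had a called interaction, and some named genes were picked by their interaction adjusted p. All 38 were called with the same sign without double KD replicate 2, as were 502 of the 503, so that fit is a lenient check. Leaving out other libraries gave as few as 113 called interactions, and the 38 were not followed in those fits. All 38 share the libraries of the report, so they add no independent evidence.

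A more negative change came with opposite signs or little change in control cells in MUC5AC (-2.85, from -1.53 against 1.32), CAVIN2 (-0.85, from -0.51 against 0.34), MT-ND3 (-0.55, from -0.38 against 0.17) and RPS4X (-0.70, from -0.70 against 0.0028). In SIRT1 KD against control the difference did not pass the test for RPS4X and MT-ND3.

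Larger falls in IGF2BP2-depleted cells were found for HAS2 (-1.34, from -1.99 against -0.66), CLDN2 (-0.86, from -2.01 against -1.15) and LGALS12 (-1.03, from -2.58 against -1.56). The same held for the signalling and transcription genes SOX4 (-1.07, from -1.34 against -0.27), PDE7B (-0.69, from -1.82 against -1.14), BMP4 (-0.61, from -1.23 against -0.62) and CITED2 (-0.36, from -0.51 against -0.15). It also held for the cytokines IL24 (-0.71, from -0.82 against -0.12) and IL11 (-0.66, from -0.93 against -0.28) and for SCD (-0.56, from -0.93 against -0.38), ALDOC (-0.73, from -1.13 against -0.40) and RPL11 (-0.39, from -0.46 against -0.069).

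Smaller rises in IGF2BP2-depleted cells were found for BSN (-1.70, from 1.85 against 3.55), SYP (-1.44, from 1.60 against 3.04), HMGA2 (-0.77, from 1.12 against 1.89), DISP2 (-0.72, from 1.85 against 2.57), AGO4 (-0.53, from 0.47 against 0.99) and ATP6V0A1 (-0.47, from 0.75 against 1.22).

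Larger rises in IGF2BP2-depleted cells were found for IL6R (0.91, from 1.91 against 1.003), DUSP8 (0.84, from 1.58 against 0.75), AEN (0.69, from 1.41 against 0.71), AOX1 (0.68, from 1.60 against 0.92), PPARGC1B (0.57, from 1.65 against 1.07), NR6A1 (0.45, from 1.59 against 1.15) and JUN (0.47, from 0.61 against 0.15).

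Smaller falls in IGF2BP2-depleted cells were found for ATP6V1A (0.94, from -0.37 against -1.31), UNG (0.73, from -0.35 against -1.08), MOB1A (0.66, from -1.06 against -1.72), SMAD5 (0.40, from -0.91 against -1.31) and RPN2 (0.38, from -2.04 against -2.42). For UAP1 the interaction was 0.64 with a difference of -0.058 in IGF2BP2-depleted cells that did not pass the test. The remaining positive values came from genes higher in IGF2BP2-depleted cells alone, CYP26B1 (1.505, from 0.80 against -0.71), CYCS (0.70, from 0.42 against -0.28) and MCM6 (0.61, from 0.55 against -0.063).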

How the results depend on the processing

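Among 180 genes that the naming rule picks besides SIRT1, IGF2BP2 and ATP6V1A, 154 kept their direction and their side of the threshold in every alternative, and all 24 of the largest changes did. SIRT1 stayed called throughout. With only the 6 libraries in the fit 1839 genes were higher. The count at least 2-fold lower was 264 with a pseudocount of 5. IGF2BP2 ranged from 0.065 to 0.30 over the leave-one-out fits and was called without double KD replicate 2 alone. ATP6V1A ranged from -0.55 to -0.18 over those fits, and only those without double KD replicate 2 or SIRT1 KD replicate 2 kept its call. ATP6V1A was also not called without a filter (-0.37, adjusted p = 0.233), with only the 6 libraries (-0.37, 0.106) or with the replicate block (-0.37, 0.0637). The same held by edgeR (-0.35, 0.0519) and from the deposited ratios (-0.35, 0.181). Called interactions ranged from 113 to 1771 over the leave-one-out fits, and were 926 by DESeq2 and 74 from the deposited ratios. With the replicate block 2934 genes were higher, 2721 lower and 457 had a called interaction; the block ended the calls for ATP6V1A and GABRE and changed no other call among the named genes. Of 1520 counts of list members under the alternatives 127 moved by more than 1.5 times. The causes of these shifts were not tested. Genes near the filter rest on about 10 reads in a library, which limits the size of a difference that can be detected there.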
